A study of Homo sapiens with 4 samples.

Results

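Two-flank clusters are places where H3K9ac, acetylation of histone H3 at lysine 9, was called as a pair of regions with a gap between them in each of 2 chromatin immunoprecipitation sequencing (ChIP-seq) libraries. They were chosen from the called regions themselves. Pooled regions of both lists were joined wherever 1 kb or less lay between them, and a cluster was kept when it held exactly 2 regions of each library and each shNT region overlapped a different shRBBP4 region by at least 1 bp. Of 18106 clusters, 10454 held regions of both libraries, and 463 of these were two-flank clusters (4.43%, exact 95% binomial interval 4.04 to 4.84, counting error only). They took up 926 regions of each list, which is 2.36% of the 39303 shRBBP4 regions and 3.45% of the 26828 shNT regions.

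The cells were T98G, an established human glioblastoma line, at passage 4, grown in serum-supplemented medium and transduced with a lentivirus. The shRBBP4 cells expressed an shRNA targeting RBBP4, which binds histones as a subunit of deacetylase, Polycomb and chromatin assembly complexes, and the shNT cells carried a control shRNA. Each shRNA is represented by 1 H3K9ac library made with the same rabbit monoclonal antibody, so differences between them have no replicate check and were not tested. The 2 input libraries were not analysed here, and library depth is unknown. The lists hold positions and scores only, so the identity of the line, the loss of RBBP4 and the genes at each place were not checked.

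H3K9ac is laid down on nucleosomes at active promoters and at many enhancers, and is read together with other acetyl marks as a sign of open chromatin. At an active start site the DNA just upstream of the start is often kept poor in nucleosomes by transcription factors and remodelling enzymes. An acetylated nucleosome on either side and few nucleosomes between them give a ChIP profile with 2 flanks and a dip. Region lists hold no nucleosome positions and no gene starts, so they show the flanks and the gap but not what lies in the gap.

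The strongest two-flank clusters had their gap at nearly the same place in both libraries. Strength is given as a percentile, the rank of a region's score within its own list from 0 to 100. Scores are values that the authors gave to regions and served only for such ranks. The strongest cluster, in which even the weakest of the 4 regions ranked highest, lay on chromosome 20 from 35917562 to 35918994 (hg19). Its gap was 126 bp in shRBBP4 and 135 bp in shNT. Its left and right flanks spanned 418 and 889 bp in shRBBP4, against 332 and 707 bp in shNT. The right flank was the wider in both libraries, and the lowest-ranked of the 4 regions stood at percentile 95.1 of its list.

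The second, on chromosome 19 from 42579318 to 42581965, had a much longer gap, of 843 bp in shRBBP4, against 846 bp in shNT. Its flanks spanned 580 and 992 bp in shRBBP4, against 338 and 1193 bp in shNT. Thus the gap differed by 3 bp while the flanks differed by over 200 bp. The third, on chromosome 1 from 94343433 to 94345473, had a gap of 183 bp in shRBBP4, against 191 bp in shNT. Its left flank spanned 487 bp in shRBBP4 and 1251 bp in shNT, and the difference lay at the outer edge. The fourth lay on chromosome 17 from 28803924 to 28805454, with gaps of 188 bp in shRBBP4, against 239 bp in shNT. This was the largest difference in gap length among the 5. The fifth lay on chromosome 1 from 33592074 to 33593761, with gaps of 445 bp in shRBBP4, against 444 bp in shNT. Across these 5 the gap centres of the libraries lay at most 32.5 bp apart, although the gaps themselves ranged from 126 to 846 bp.

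**Figure D1:**
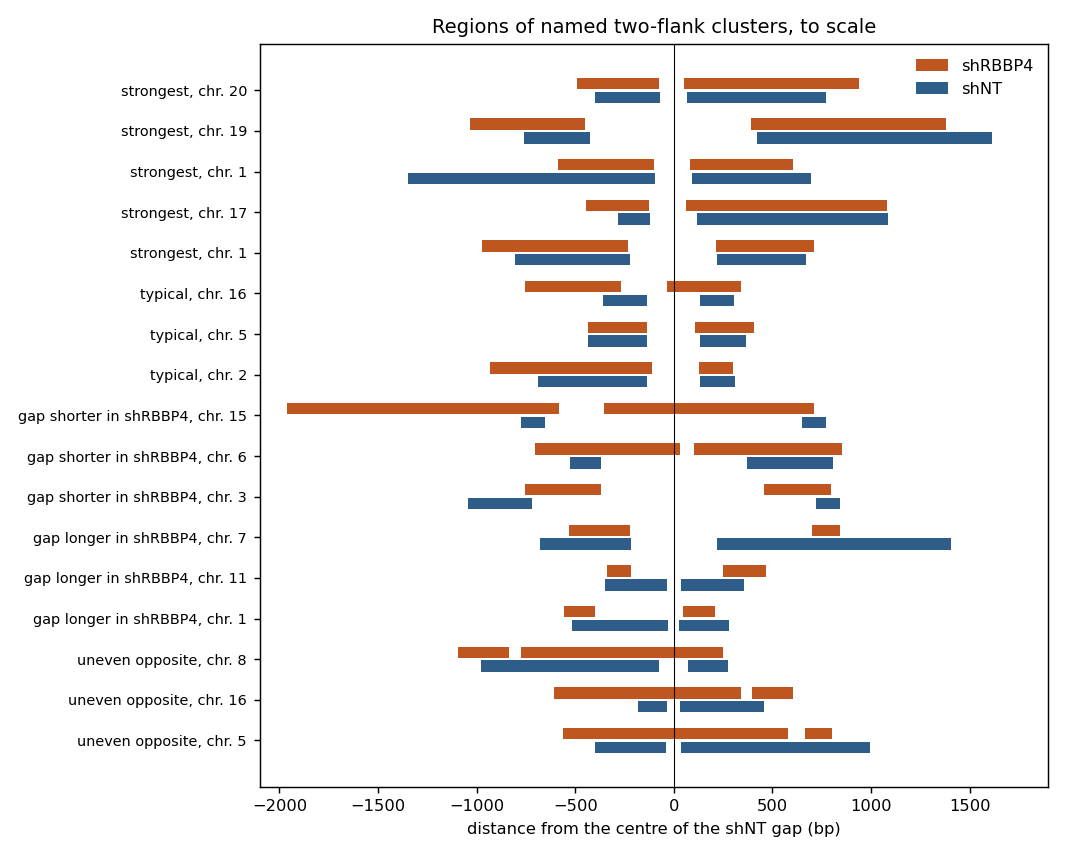
Regions of 17 named clusters, drawn to scale as distance in bp from the centre of the shNT gap, with shRBBP4 above shNT in each pair of tracks. In the 5 strongest clusters the gaps of both libraries line up. In the 6 clusters chosen for a difference in gap length the shorter gap lies within the longer. In the 3 chosen for opposite asymmetry a region of each library covers the gap of the other.

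Gaps were short, and the shortest were the most frequent. The gap is the number of bases between the end of the left and the start of the right region. Its median was 233 bp in shRBBP4 (quartiles 119 and 419, range 52 to 1163) and 266 bp in shNT (quartiles 138 and 480, range 52 to 1441). The lower end is set by the lists, since no gap under 52 bp occurred between any 2 regions of either list. A gap could exceed the 1 kb limit where regions of the other library reached into it, which happened in 3 shRBBP4 and 9 shNT gaps.

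A nucleosome core holds close to 150 bp of DNA, and gaps were classed by that length. Edges of called regions do not mark nucleosomes, so the classes are lengths only. Gaps under 150 bp were found in 150 clusters in shRBBP4 and 130 in shNT. Gaps of 150 to under 300 bp were found in 141 in shRBBP4 and 130 in shNT. Those of 300 bp or more were found in 172 in shRBBP4 and 203 in shNT. Counted in steps of 50 bp, gaps of 50 to 99 bp were the largest class, with 86 clusters in shRBBP4 and 74 in shNT. The next class, 100 to 149 bp, held 64 in shRBBP4 and 56 in shNT. No class of longer gaps held as many clusters as these in either library.

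**Figure D2:**
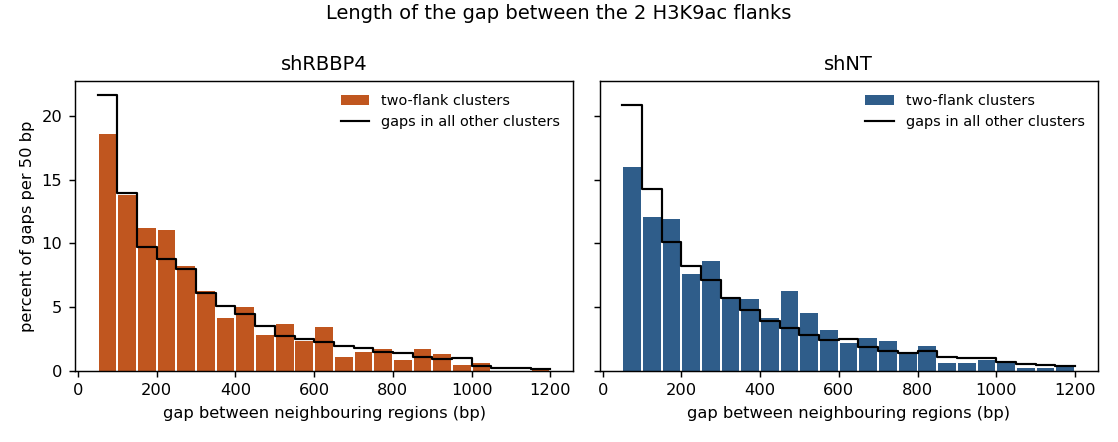
Percent of gaps per 50 bp of length in shRBBP4 (left) and shNT (right), as bars for the 463 two-flank clusters and as a line for gaps between neighbouring regions within all other clusters. Gaps of 1200 bp or more are not drawn. Bars and line both start at their highest value, at 50 to 99 bp.

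The gaps were compared in length with the other gaps of the same lists. Between neighbouring regions within all other clusters, the median gap was 226 bp in shRBBP4 (22049 gaps) and 229 bp in shNT (14596 gaps). Gaps under 150 bp made up 32.4% of two-flank gaps and 35.6% of other gaps in shRBBP4. In shNT they made up 28.1% of two-flank gaps and 35.1% of other gaps. The exact 95% interval of the two-flank median was 207 to 252 bp in shRBBP4, which holds the median of the other gaps, and 238 to 289 bp in shNT, which does not. The rule favours gaps seen in both lists, and no test of the difference was made.

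The pairing rule itself draws the gaps of the libraries together, and 460 clusters with 2 regions of each library were left out because they failed it. The values that follow therefore describe the members and support nothing further. The gap centres of the 2 libraries lay a median of 37.0 bp apart (quartiles 14.5 and 98.5, largest 804). They were within 25 bp of each other in 173 clusters, within 50 bp in 263 and within 150 bp in 399 of 463. The shift had no side, with a median of -2.5 bp for shRBBP4 minus shNT along the chromosome. The gaps themselves overlapped in 412 clusters (89.0%), and in 312 the common part was at least 50% of the longer gap. Of the whole stretch spanned by either gap, a median of 66.9% was common to both.

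Gap lengths moved together across clusters, with a Spearman correlation of 0.76 (463 clusters of the same 2 libraries, a description with no test). The gap was shorter in shRBBP4 in 270 clusters, longer in 192 and equal in 1. The difference of shRBBP4 minus shNT had a median of -15.0 bp, with quartiles of -82.5 and 32.0. It was under 50 bp in size in 207 clusters. A difference of over 200 bp was found in 69 clusters, with the shorter gap in shRBBP4 in 52 and in shNT in 17. No share at this limit is given for gaps in other clusters, so these counts only describe the members.

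**Figure D3:**
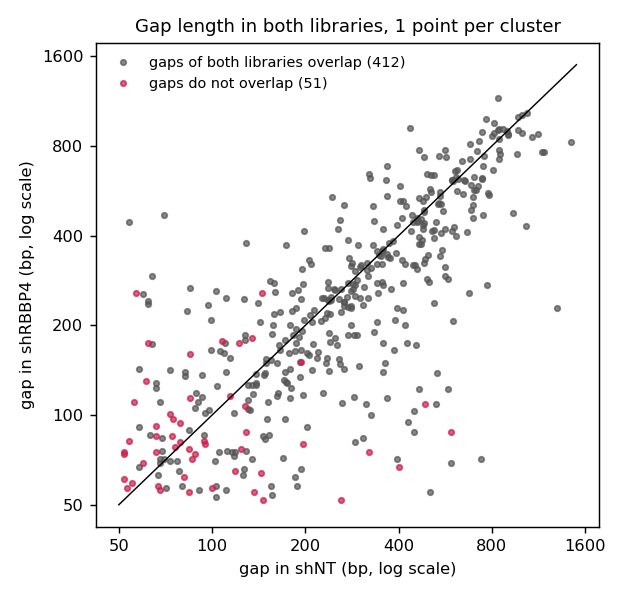
Gap length in shRBBP4 (vertical) against shNT (horizontal), in bp on log scales, with 1 point per cluster and the line of equal gaps. Most of the 412 clusters whose gaps overlap lie near the line, while the 51 clusters whose gaps do not overlap are mostly below 150 bp on both axes.

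With 1 library per group, a gap was called different at 1.5-fold. By that rule 99 gaps (21.4%) were shorter and 57 (12.3%) longer in shRBBP4. Among all 3525 gaps of the lists whose regions paired one to one, 24.4% were shorter and 12.8% longer by the same rule. These include 412 two-flank gaps and leave out the 51 that do not overlap. Like for like, 20.9% of the 412 were shorter (17.0 to 25.1), against 24.8% of the 3113 gaps in other clusters (23.3 to 26.4). By the same count 11.9% of the 412 were longer (8.93 to 15.4), against 12.9% in other clusters (11.7 to 14.1). The intervals overlap in both directions. The shRBBP4 list also held more regions, and the part of depth in shorter gaps was not tested.

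For comparison, 3113 gaps in 2171 other clusters also lay between regions that paired one to one, and 412 two-flank clusters meet the same condition. The median gap of those 412 was 255.5 bp in shRBBP4, against 289 bp in shNT. In the other clusters it was 222 bp in shRBBP4, against 259 bp in shNT. The gap centres lay a median of 32.0 bp apart in the two-flank clusters and 33.0 bp in the others. The gap was shorter in shRBBP4 in 59.7% of the two-flank gaps (54.8 to 64.5) and in 59.4% of the other gaps (57.6 to 61.1), and these intervals overlap. No test of the difference was made.

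Of the 69 clusters with gap lengths over 200 bp apart, 38 had both flanks narrower in the library with the longer gap. The 6 named for the largest difference, 3 in each direction, were all of this kind. A longer gap leaves less room for the flanks beside it, so part of this is built in. No such share is given for smaller differences or for other clusters. On chromosome 15 from 32961110 to 32963841, the gap was 228 bp in shRBBP4 and 1301 bp in shNT. The flanks spanned 1378 and 1065 bp in shRBBP4, against 123 and 123 bp in shNT, the smallest width in that list. On chromosome 6 from 18153717 to 18155277, the gap was 71 bp in shRBBP4 and 739 bp in shNT, and both flanks were wider in shRBBP4. On chromosome 3 from 43662422 to 43664309, it was 827 bp in shRBBP4 and 1441 bp in shNT.

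The opposite was seen on chromosome 7 from 38217107 to 38219193, with a gap of 923 bp in shRBBP4, against 436 bp in shNT. Its right flank spanned 143 bp in shRBBP4 and 1190 bp in shNT. On chromosome 11 from 62529096 to 62529908, the gap was 469 bp in shRBBP4 and 70 bp in shNT. On chromosome 1 from 36234184 to 36235019, it was 446 bp in shRBBP4 and 54 bp in shNT. In these 6 clusters the regions of the library with the longer gap spanned at most 438 bp each. They were picked as the extremes of 463, so their sizes describe the tails and nothing else.

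In 51 clusters the gaps did not overlap, and the name of a shared central gap does not hold for them. The gaps compared in other clusters all overlap, so no share stands beside this count and it only describes the members. In each of the 51, a region of shRBBP4 reached across the whole shNT gap and a region of shNT across the whole shRBBP4 gap. Their gaps were short, with medians of 80 bp in shRBBP4, against 85 bp in shNT, and their gap centres lay a median of 222.5 bp apart (quartiles 178 and 338). The clearest case lay on chromosome 8 from 145652458 to 145653827. Its gap was 64 bp in shRBBP4 and 144 bp in shNT, and the centres were 804 bp apart. On chromosome 5 from 96211630 to 96213185, gaps of 85 bp in shRBBP4, against 74 bp in shNT had centres 623.5 bp apart. On chromosome 16 from 68001161 to 68002375, gaps of 58 bp in shRBBP4, against 67 bp in shNT had centres 370.5 bp apart. In such clusters the called stretch was interrupted at a different place in each library.

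Short gaps were shared least. Clusters were split by the mean gap of both libraries at 150 and 300 bp, about the length of 1 and 2 cores. A region of each library covered the gap of the other in 42 of 124 clusters with short gaps, in 8 of 151 with middle gaps and in 1 of 188 with long gaps. A short gap has less room to overlap, so part of this is built in. The distance between the gap centres was similar, with medians of 38.25, 32.5 and 38.75 bp in the short, middle and long classes. Relative to the stretch spanned by either gap, the common part had a median of 37.2% in the short, 64.1% in the middle and 78.2% in the long class. The wider flank was on the same side in both libraries in 50 of 81 uneven clusters of the short class (61.7%, 50.3 to 72.3), in 84 of 109 of the middle class (77.1%, 68.0 to 84.6) and in 109 of 131 of the long class (83.2%, 75.7 to 89.2), by the measure of width given further on. Gaps that do not overlap favour opposite sides, and 42 clusters of the short class had such gaps, so part of this is built in as well.

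The 5 longest gaps common to both libraries lay on chromosome 11 from 62432012 to 62433833 (989 bp), chromosome 6 from 117996071 to 117997546 (960 bp), chromosome 19 from 18303013 to 18304889 (931 bp), chromosome 12 from 122017790 to 122019246 (903 bp) and chromosome 18 from 74813106 to 74814540 (884 bp). The first of them had gaps of 1032 bp in shRBBP4, against 1036 bp in shNT. Its left flank was the wider in both libraries, at 604 bp in shRBBP4 and 474 bp in shNT. These stand just inside the joining limit. Just outside it, pairs of single shared regions had a common gap of 1050 bp on chromosome 11 (8891741 to 8893338) and on chromosome 17 (7210127 to 7212156). There were 21 such pairs with a common gap of 1001 to 1500 bp. Two-flank clusters numbered 23 at 751 to 1000 bp, 42 at 501 to 750 bp, 114 at 251 to 500 bp and 233 at 1 to 250 bp. The ranges differ in width and the pairs were picked differently, so the counts only show that the limit left out some longer gaps. With a joining distance of 2 kb the median gap was 256 bp in shRBBP4 and 291.5 bp in shNT.

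At the other end, the shortest common gap was 3 bp, on chromosome 8 from 144362677 to 144363785, with gaps of 89 bp in shRBBP4, against 84 bp in shNT that barely met. The next were 7 bp on chromosome 9 from 112542636 to 112543979, 8 bp on chromosome 1 from 26219252 to 26219829, 12 bp on chromosome 8 from 146227266 to 146228233 and 13 bp on chromosome 19 from 44808399 to 44808979. In these 5 clusters at most 13 bp lay in the gap of both libraries.

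The 3 clusters closest to the median gap of both lists were typical in gap length but not in every other measure. On chromosome 5 from 140699987 to 140700827, the gap was 239 bp in shRBBP4 and 266 bp in shNT, between flanks of 303 and 299 bp in shRBBP4 and of 302 and 235 bp in shNT. The left flank ended at the same base in both libraries and stood at percentile 91.0 in shRBBP4 and 96.1 in shNT, each in its own list. The right flank stood at percentile 68.3 in shRBBP4 and at 0.524 in shNT, the largest difference in rank between the flanks of any of the 463 clusters in shNT. On chromosome 2 from 74617952 to 74619196, the gap was 240 bp in shRBBP4 and 267 bp in shNT. There the left flank was the wider, at 821 bp in shRBBP4 and 555 bp in shNT, but the right flank ranked higher, at percentile 99.9 in shRBBP4 and 99.97 in shNT. On chromosome 16 from 88876769 to 88877864, gaps of 233 bp in shRBBP4, against 267 bp in shNT had centres 150 bp apart, so gaps of similar length did not always share a place.

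The gap was central in most clusters, in the sense that its centre lay between 0.25 and 0.75 of the way along the span of its own library. This held for 409 clusters in shRBBP4 and 423 in shNT, and for 382 in both. The median position was 0.496 in shRBBP4 (quartiles 0.380 and 0.602) and 0.50 in shNT (quartiles 0.406 and 0.589). Much of this is built in, because a flank cannot be narrower than the smallest region of its list, 116 bp in shRBBP4 and 123 bp in shNT. The length of the gap itself moves its centre further from either end. The median span was 1000 bp in shRBBP4 and 915 bp in shNT. At such spans and a median gap the centre could hardly lie outside this range, so these counts only describe the members. Counting also the overlap of the gaps, 355 of 463 clusters had a shared gap in the middle of both spans.

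Centring on the gap of 1 library shows how far the other dips there. At the centre of the shNT gap, an shRBBP4 region covered 24% of clusters, against peaks of 66.7% at 230 bp to the left and 64.6% at 240 bp to the right. At the centre of the shRBBP4 gap, an shNT region covered 20.7%, against peaks of 59.2% at 230 bp to the left and 59.8% at 260 bp to the right. Each library thus had a dip at the gap of the other, with shoulders at similar distances on both sides. The pairing rule favours such a dip, so it is a description.

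**Figure D4:**
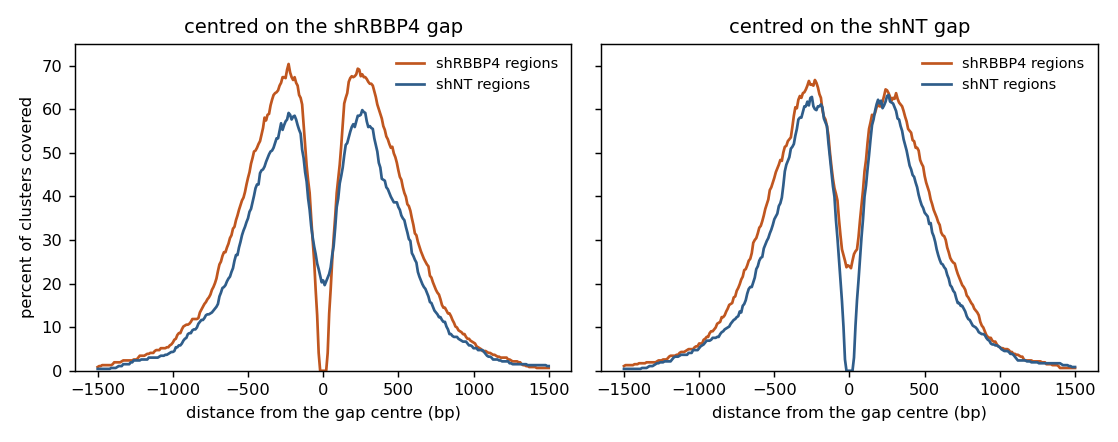
Percent of the 463 clusters covered by an shRBBP4 or an shNT region against distance from the gap centre in bp, centred on the shRBBP4 gap (left) and on the shNT gap (right). The library used for centring is at 0 in the middle by construction, and the other dips to 20.7% (shNT, left panel) and 24% (shRBBP4, right panel).

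The inner edges, which face the gap, were placed more alike than the outer edges. The edges of the 2 libraries lay a median of 41.0 bp apart at the 926 inner edges (quartiles 14 and 127) and 65.0 bp apart at the 926 outer edges (quartiles 23 and 160). Within 25 bp were 37.7% of inner and 28.6% of outer edges. The shRBBP4 region reached further than the shNT region at 54.3% of inner edges, by a median of 6.0 bp over all of them, and at 60.5% of outer edges, by a median of 19.0 bp. The pairing rule limits how far apart inner edges can lie more than outer edges, so it favours this difference. Edges of 1 cluster are not independent, and the comparison was not tested.

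Seen from the gaps, shRBBP4 regions covered a median of 20.6% of the shNT gap, and shNT regions covered a median of 9.02% of the shRBBP4 gap. Over all clusters together, shRBBP4 regions covered 26.2% of the bases in shNT gaps and shNT regions 17.8% of those in shRBBP4 gaps. The other library did not enter the gap at all in 80 clusters for shNT gaps and in 131 for shRBBP4 gaps. These values include the 51 clusters in which a region of each library covered the gap of the other. No such values are given for gaps in other clusters, so they only describe the members. The shRBBP4 list also held more regions, and the part of depth was not tested.

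Flanks were wider in shRBBP4. Their median width was 302.5 bp in shRBBP4 (quartiles 177 and 492, range 116 to 1713) and 245.5 bp in shNT (quartiles 150 and 387, range 123 to 1950). For comparison, the medians of all regions were 213 bp in shRBBP4 and 210 bp in shNT. The shRBBP4 flank was a median of 1.13 times as wide as its shNT counterpart. By the 1.5-fold rule, 282 of 926 flanks (30.5%) were wider and 122 (13.2%) narrower in shRBBP4. Among all 13009 regions that overlapped one to one, 29.1% were wider and 11.6% narrower. Of the 824 flanks that overlapped one to one, 29.2% were wider (26.2 to 32.5), against 29.1% of the 12185 such regions in other clusters (28.3 to 29.9). Of the same 824, 11.0% were narrower (8.99 to 13.4), against 11.6% in other clusters (11.1 to 12.2), so both shares were near the background. Both flanks of a cluster were wider by the rule in 38 clusters and both narrower in 11, while 43 clusters had 1 of each. Such counts are not given for other clusters, so they only describe the members.

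The flanks of a cluster were unequal in width. The wider flank had a median of 458 bp in shRBBP4, against 351 bp in shNT, and the narrower one 197 bp in shRBBP4 and 160 bp in shNT. The wider was at least 2 times the narrower in 231 clusters in shRBBP4 and in 208 in shNT. No such counts are given for neighbouring regions in other clusters, so these only describe the members. At the low end the caller sets the width. A flank within 10 bp of the smallest width of its list was found in 78 clusters in shRBBP4 and 135 in shNT. Sides had no overall preference along the chromosome. With a limit of 10% of the summed width, the left flank was the wider in 189 and the right in 191 clusters in shRBBP4, and in 189 and 194 in shNT. Transcription gives a start site a direction, but without gene positions upstream and downstream flanks could not be told apart.

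The side of the wider flank was mostly the same in both libraries. Of 321 clusters uneven by over 10% in both, 243 had the wider flank on the same side (75.7%, 70.6 to 80.3), 115 on the left and 128 on the right, and 78 on opposite sides. The asymmetry, left minus right width over their sum, had a Spearman correlation of 0.53 between the libraries. Where the gaps overlapped, 227 of 281 clusters kept the side (80.8%, 75.7 to 85.2). Where they did not, 16 of 40 did (40.0%, 24.9 to 56.7). There the gap lies further left in 1 library than in the other, which favours opposite sides, so this contrast is partly built in. In gaps between regions paired one to one in other clusters, which overlap as well, 83.2% kept the side (81.5 to 84.8), and this interval overlaps that of the 281.

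The clusters most uneven to the same side had a narrow flank beside a much wider one in both libraries, and the narrow one had the smallest width of the list in shNT. On chromosome 5 from 98108952 to 98111592, the flanks spanned 136 and 1713 bp in shRBBP4, against 123 and 1333 bp in shNT. On chromosome 20 from 55926047 to 55927413, they spanned 139 and 1075 bp in shRBBP4, against 123 and 821 bp in shNT. That cluster had gaps of 153 bp in shRBBP4, against 155 bp in shNT. On chromosome 4 from 152021005 to 152022812, they spanned 1146 and 174 bp in shRBBP4, against 840 and 123 bp in shNT. The narrow flank was on the same side in both libraries by the rule that chose these clusters. The 3 most uneven clusters with opposite sides were those on chromosomes 8, 16 and 5 described above, in which the gaps did not overlap. Gaps at different places favour opposite sides, so this too is partly built in.

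The side of the higher-ranked flank was also shared in most clusters. In shRBBP4 the flanks had a median percentile of 68.1, with 81.1 for the higher-ranked and 48.9 for the lower-ranked flank. In shNT the corresponding values were 59.5, 73.4 and 37.7. Percentiles from lists of unequal length show no change between libraries, and across libraries they served only to choose clusters by their lowest rank. Scores are coarse, with 2104 distinct values in shRBBP4 and 1301 in shNT, so many regions share a rank. Of 283 clusters with flanks over 10 percentile points apart in both lists, 200 had the higher-ranked flank on the same side (70.7%, 65.0 to 75.9), 107 on the left and 93 on the right. Where the gaps overlapped, 180 of 252 did (71.4%, 65.4 to 76.9). Between regions paired one to one in other clusters, the share was 74.7% (72.6 to 76.7), and this interval overlaps that of the 252.

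**Figure D5:**
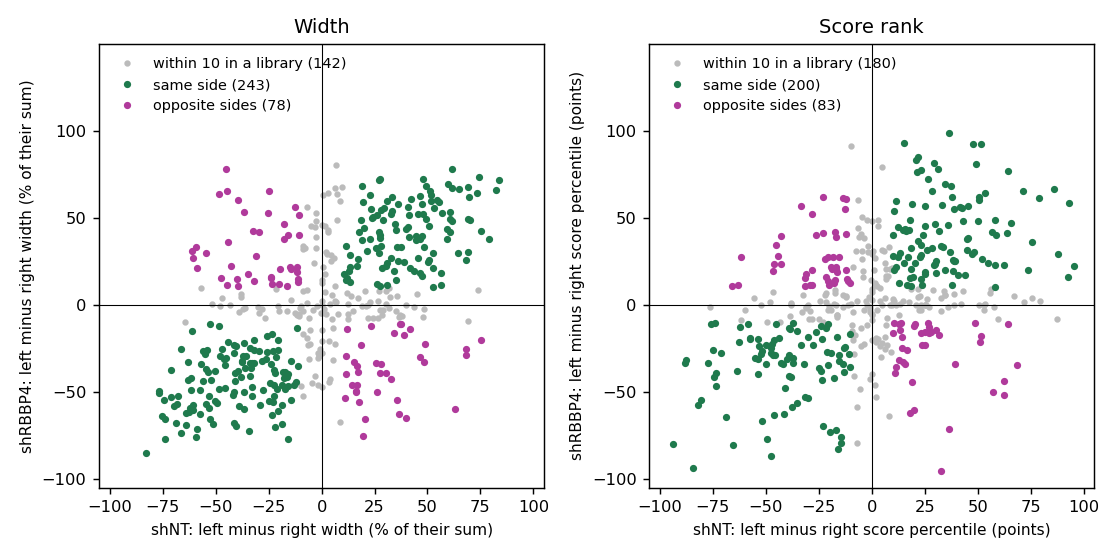
Left minus right flank width as percent of their sum (left panel) and left minus right score percentile (right panel), shRBBP4 on the vertical and shNT on the horizontal axis, with 1 point per cluster. Points in the lower left and upper right are clusters whose larger flank is on the same side in both libraries, 243 by width and 200 by rank, against 78 and 83 on opposite sides.

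The wider flank was usually, but not always, the stronger. Where the flanks differed by both limits, the wider was the higher-ranked in 205 of 288 clusters in shRBBP4 (71.2%, 65.6 to 76.3) and in 224 of 310 in shNT (72.3%, 66.9 to 77.2). Width and rank were correlated across flanks, with a Spearman correlation of 0.48 in shRBBP4 and 0.46 in shNT, so a shared side by rank is not independent of one by width. Of 196 clusters that were uneven by both measures in both lists, 93 had all 4 larger values on 1 side, 48 on the left and 45 on the right. Gap length had little relation to strength, with a Spearman correlation with the mean percentile of the flanks of -0.07 in shRBBP4 and -0.14 in shNT.

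In stronger clusters the gap centres lay closer together, a difference that was not tested. In 117 clusters with all 4 regions above percentile 50, the gap centres lay a median of 26.0 bp apart, against 42.25 bp in the other 346. The wider flank kept its side in 73 of 88 (83.0%, 73.4 to 90.1) of the stronger and in 170 of 233 (73.0%, 66.8 to 78.6) of the other clusters, and these intervals overlap. Median gaps of the stronger clusters were 208 bp in shRBBP4 and 235 bp in shNT. In all, 6 clusters had all 4 regions above percentile 90.

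Two-flank clusters were a small part of the clusters with a pair of regions in either library. They made up 463 of 2814 clusters that had exactly 2 shNT regions and any shRBBP4 region (16.5%), and 463 of 2775 with exactly 2 shRBBP4 regions and any shNT region (16.7%). A further 460 clusters had 2 regions of each library without pairing. In 309 of these only 1 shNT region overlapped an shRBBP4 region, in 132 both shNT regions overlapped the same one, and in 19 neither did. The two-flank clusters spanned a median of 1056 bp, against 1308 bp for these 460.

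In some clusters with a pair in 1 library and a single region in the other, the single region covered the whole gap. The totals that follow also hold clusters whose single region did not reach across the gap. Of 1211 clusters with 2 shRBBP4 regions and 1 shNT region, the shNT region covered the whole shRBBP4 gap in 118 (9.74%, 8.13 to 11.6). Of 559 with 1 shRBBP4 region and 2 shNT regions, the shRBBP4 region covered the whole shNT gap in 153 (27.4%, 23.7 to 31.3). The gaps covered in this way were short, with a median of 84.0 bp for shRBBP4 gaps and 97.0 bp for shNT gaps, below the lower quartile of the two-flank gaps. The part of depth in these counts was not tested.

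Two-flank clusters were found on all 22 autosomes and on chromosome X. Chromosome 1 had most, 55, followed by chromosome 19 with 45 and chromosome 5 with 34. As a share of the clusters of both libraries, they reached 9.45% on chromosome 21 (12 of 127, 4.98 to 15.9) and 6.97% on chromosome 19 (45 of 646, 5.13 to 9.21), and were lowest on chromosome 3 with 2.77% (17 of 613, 1.62 to 4.40). On these 3 of 23 chromosomes the interval excluded the overall share of 4.43%, and the intervals were not adjusted for the number of chromosomes. The nearest other cluster lay a median of 27.5 kb away, against 19.6 kb for the other clusters of both libraries, and 95 two-flank clusters had another cluster within 5 kb.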

How the data were processed

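The data were 2 lists of H3K9ac regions, 1 per shRNA. Each library was called alone, with the words PE and macs2 in the track line, per the file headers. The notes name SICER, BWA, Picard and bcl2fastq 2.15.0, and as builds hg19 and GRCh37, with no role for any of them, per the submitters' processing notes. Which caller made the lists is not settled. The deposited score is the authors' value per region on a scale that is not stated. Starts are counted from 1. No genome or gene annotation of this build was used here, so no sequence or gene is given.

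Clusters were joined and paired as described, and each flank, gap and edge was measured per library. Score percentiles are mid-ranks within a list. Intervals of shares are exact Clopper-Pearson at 95% and cover counting error only. Intervals of medians are taken at 95% from the ranked values with binomial limits. All treat the counted clusters, gaps or regions as independent. Several gaps or regions can come from 1 cluster, so intervals on these may be too narrow. With 1 library per group there was no test. The pairing was tested on simulated data. Named clusters are the strongest, the longest, the shortest, the most typical and the most different ones, with fixed numbers of each. The members, lists and rules were chosen with earlier results of these data known. Alternatives were the joining distance, score limit, overlap, list length and limits of asymmetry. The work used scipy 1.17.1, pandas 2.3.3, matplotlib 3.10.9 and numpy 2.4.6 under Python 3.11.15.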

Additional observations from a re-analysis of the deposited data

How the results depend on the processing

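No paired analysis was possible because neither shRNA has a further H3K9ac library. A median or share was taken as moved when it left the exact 95% interval of the reported value, and a number of clusters when it changed by over 1.5 times. The median gap in shRBBP4 and shNT was 185 and 218 bp with a joining distance of 500 bp, 256 and 291.5 bp with 2 kb, 261 and 303 bp in the higher-scoring 50% of each list, and 255.5 bp in shRBBP4 without the clusters whose gaps do not overlap, an alternative chosen after seeing the data. A joining distance of 500 bp limits gap length by construction. The median distance between gap centres was 46 bp with 500 bp, 30.5 bp in the higher-scoring 50%, 32.0 bp with an overlap of 50% of the shorter region, 25.25 bp with 50% of both, and 32.0 bp without the clusters whose gaps do not overlap. Measured as overlap, position gave 66.9% of the joint gap. Median flank widths in shRBBP4 and shNT were 442 and 343.5 bp in the higher-scoring 50% and 324 and 269 bp in lists of equal length, and 270 bp in shNT with an overlap of 50% of both regions. That overlap left 204 clusters, of which 95.3% kept the side of the wider and 76.1% that of the higher-ranked flank. With limits of 30% or 30 points, 87.3% and 88.0% kept the side, and 80.8% by width where gaps overlap. The other 44 of 68 values stayed within these limits, among them 643 clusters with 500 bp and 537 in lists of equal length, against 463. The median gap difference was negative in all 7 alternatives in which it was computed, but with an overlap of 50% of both regions it was -9.0 bp with an interval of -19.0 to 1.0, which includes 0. Of the clusters, 398 of 463 were also found with 500 bp and 401 with 2 kb. Unknown depth limits every comparison of width and gap length.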
